A study of Oryza sativa with 6 samples.

Results

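GSTU6 and GST-I are rice genes for glutathione transferases, and both gave a higher signal in seedlings carrying a T-DNA mutation in CHR729 than in wild-type seedlings. They were taken as every probe set that the array's gene annotation assigns to a gene with the symbol or synonym GSTU6 or GST-I. That gave 3 probe sets of 2 genes, among 57258 tested probe sets that cover 17905 genes. GSTU6 (LOC4349207) has 2 probe sets and GST-I (LOC4325710, also named GSTF1) has 1. A further 4 genes with 5 probe sets carry a GST symbol or synonym, namely GST1 (GSTU1), GST-II (GSTF2), gst2 (GSTZ3) and GSTZ5. These 6 are all the genes with such a name in the rice gene table, and genes listed there by locus number alone were not searched, so they are not the whole family.

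RNA came from whole seedlings 11 days old, 3 samples of the CHR729 T-DNA mutant and 3 of wild-type Hwayoung, a japonica rice cultivar, with 1 Affymetrix Rice Genome Array for each sample. Both groups were germinated on 0.8% agar with 3% sucrose under 14 h of light at 28 °C and 10 h of dark at 24 °C. CHR729 encodes a CHD-type chromatin remodelling protein. Samples of a group are labelled as biological replicates, without saying whether seedlings were pooled or grown apart, and the mutant is described by its T-DNA insertion alone.

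Glutathione transferases join the tripeptide glutathione to reactive, electron-poor molecules, which makes them more soluble and marks them for transport into the vacuole. Plant genes of this family are sorted into classes by sequence, and the letter after GST names the class. The tau (U) and phi (F) classes are the large plant classes, known for detoxifying herbicides and for induction by stress and by hormones, whereas zeta (Z) enzymes are known from animals to take part in tyrosine breakdown. Several transferases also reduce organic peroxides with glutathione, which ties the family to glutathione synthesis, glutathione reductase, ascorbate peroxidases and the other parts of redox control.

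Array medians of the tested probe sets lay between 67.6 and 71.1 signal units. Across probe sets, the log2 signals of any pair of mutant arrays correlated at 0.992 to 0.996, of any pair of wild-type arrays at 0.988 to 0.990, and of a mutant with a wild-type array at 0.973 to 0.986. The ratio of the 3' to the 5' GAPDH control, a measure of RNA integrity, was 2.46 to 2.73 in the mutant and 2.46 to 2.78 in wild type, and that of the actin control was 6.98 to 7.03 in the mutant and 6.27 to 7.93 in wild type. The 3' actin control itself was 3613 to 3899 in the mutant and 2614 to 3122 in wild type, without overlap. The 18S rRNA control was 563 to 651 in the mutant and 354 to 427 in wild type, without overlap. The bioB hybridization control, added to every sample, ran from 322.6 to 349.4 on mutant arrays and from 208.3 on wild-type array 3 to 499.7 on wild-type array 2. Their part in the results below was not tested.

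The tau-class gene GSTU6 gave signals of 974.5, 960.1 and 1004.5 on the 3 mutant arrays with its brighter probe set, against 773.8, 747.6 and 587.1 on the 3 wild-type arrays. Every mutant array lay above every wild-type array, and the lowest mutant signal was 1.24 times the highest wild-type signal. The mean was 979.7 ± 22.7 in the mutant and 702.8 ± 101 in wild type (SD, n = 3 each), a ratio of 1.39. On the log2(signal + 32) scale the difference, mutant minus wild type, was 0.47 (SE 0.11), with a 95% interval of 0.22 to 0.72. The offset of 32 damps differences of dim probe sets and all log2 differences here are on that scale.

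The mutant arrays were close together for GSTU6 and the wild-type arrays were not. The coefficient of variation was 2.31% in the mutant, and 88.1% of the 1774 probe sets of like brightness (mean log2 within 0.25) varied more than that between mutant arrays. In wild type it was 14.4%, and 23.3% of the same probe sets varied more. Wild-type array 3 was the low one, at 587.1, and it was also the array with the lowest bioB control. Wild-type array 2, with the highest bioB control, gave 747.6, between the other wild-type arrays. A link between the control and GSTU6 was not tested. Without wild-type array 3 the log2 difference was 0.35. Over all 6 ways of leaving out 1 array the difference lay between 0.35 and 0.54.

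The second GSTU6 probe set was dim on every array. Its signals were 19.3, 25.1 and 26.0 in the mutant, against 26.2, 17.0 and 21.7 in wild type, all under the array medians. The groups overlapped, and the log2 difference was 0.05 (SE 0.08), with a 95% interval of -0.12 to 0.23. Signals this low carry little information on the transcript, and detection calls were not used here. The pattern described for GSTU6 therefore rests on 1 probe set.

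The phi-class gene GST-I gave signals of 274.5, 209.3 and 255.9 in the mutant, against 161.9, 187.1 and 190.2 in wild type. The groups did not overlap, but the gap was narrow, since the lowest mutant signal was 1.10 times the highest wild-type signal. The mean was 246.6 ± 33.6 in the mutant and 179.8 ± 15.6 in wild type (SD, n = 3 each), a ratio of 1.37. The log2 difference was 0.39 (SE 0.11), with a 95% interval of 0.15 to 0.63. For GST-I it was the mutant arrays that were spread, with a coefficient of variation of 13.6% against 8.66% in wild type, and mutant array 2 was the low one. Among 3871 probe sets of like brightness 15.9% varied more between mutant arrays and 57.8% varied more between wild-type arrays.

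**Figure D1:**
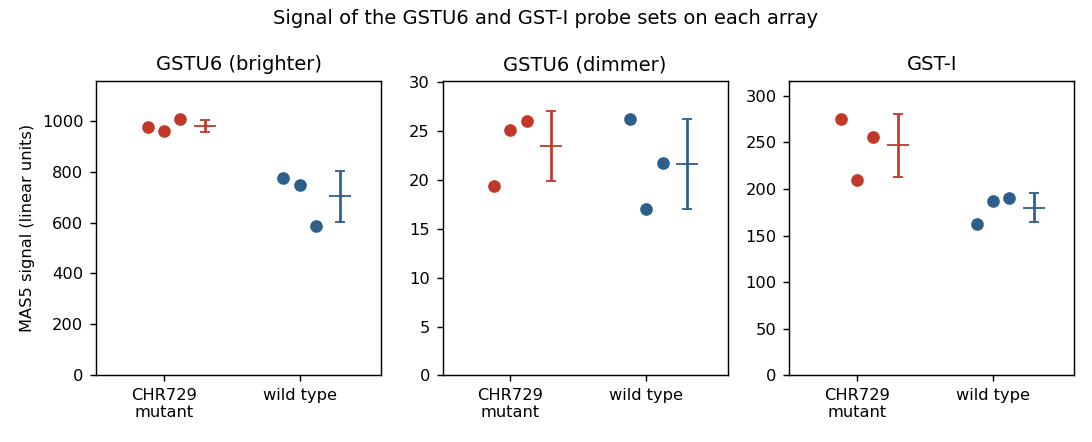
Signal (linear units, axis from 0) of the 3 probe sets of GSTU6 and GST-I on each array, with 1 point per array and a bar for the mean ± SD of 3 arrays, CHR729 mutant left and wild type right in each panel. The brighter GSTU6 probe set and GST-I have every mutant point above every wild-type point, whereas the dimmer GSTU6 probe set lies between 17.0 and 26.2 with overlapping groups.

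GSTU6 and GST-I were chosen by their signals in this same comparison of mutant with wild type, in which they passed the threshold (adjusted p under 0.05), so their differences are a description. Adjusted p-values given for them show only how near the threshold they stood, and nothing is supported with them. In all, 3 of the 8 GST probe sets passed the threshold, the brighter GSTU6 and GST-I as higher and 1 of gst2 as lower. Across the array 18.1% of the 22436 probe sets that name 1 gene passed, 9.96% as higher and 8.16% as lower. Of all 57258, 9.91% passed, 5.48% as higher and 4.42% as lower. Mutant and wild-type signals were fully separate in 4 of the 8 GST probe sets, 2 with the mutant above and 2 with it below. That held for 40.4% of probe sets with 1 gene (21.6% above, 18.8% below) and for 27.1% of all probe sets (14% above, 13.1% below). GST-I and the lower gst2 probe set stood just inside the threshold, both at an adjusted p of 0.0492 (limma), and GSTZ5 was the nearest outside it at 0.13. Among probe sets of like brightness 7.89% had a higher log2 difference than GSTU6, counting rises alone, and 18.3% had a larger one in either direction. For GST-I these shares were 9.38% and 17.2%.

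The position of GST-I at the threshold made its call depend on the processing. It passed in 4 of 9 other settings of the processing and in 1 of 6 fits that left out an array, the one without mutant array 2, with log2 differences from 0.28 to 0.49 over all of them. GSTU6 passed in 9 of 9 other settings and in 2 of 6 fits without 1 array, those without wild-type array 1 and without wild-type array 3. Without mutant array 1, mutant array 2, mutant array 3 or wild-type array 2 its adjusted p lay between 0.0532 and 0.0942 (limma), with log2 differences between 0.45 and 0.52.

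The other tau-class gene, GST1, was near the array medians. Its signals were 108.7, 95.9 and 102.7 in the mutant, against 102.7, 89.2 and 84.5 in wild type, and the groups overlapped. The log2 difference was 0.12 (SE 0.09, adjusted p = 0.503, limma), and its 95% interval of -0.07 to 0.31 takes in changes of up to 1.24-fold. The probe set's type (s) marks it as one that can match several transcripts.

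The other phi-class gene, GST-II, gave signals of 6622, 6105 and 5967 in the mutant, against 6012, 5885 and 5641 in wild type. The highest wild-type array lay between the mutant arrays, so the groups overlapped. The log2 difference was 0.09 (SE 0.07, adjusted p = 0.55, limma), with a 95% interval of -0.07 to 0.25. In fold terms that interval was 0.951 to 1.19, and the interval of GST-I, 1.11 to 1.55, overlapped it. The difference between the 2 genes was not tested.

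The zeta-class genes had differences below 0. GSTZ5 gave 921.3, 811.7 and 855.5 in the mutant, against 977.9, 1101 and 1025 in wild type, with every mutant array under every wild-type array. Its log2 difference was -0.25 (SE 0.09) and it did not pass (adjusted p = 0.13, limma). For gst2 the probe set of type x, which can cross-hybridize, gave 257.2, 273.3 and 249.8 in the mutant, against 315.6, 333.8 and 340.3 in wild type. The groups did not overlap and this probe set fell by 0.31 on the log2 scale (SE 0.09, adjusted p = 0.0492, limma). The call was lost in 6 of 6 fits without 1 array, with adjusted p from 0.0533 to 0.169. A second gst2 probe set gave 274.6, 328.4 and 249.0 in the mutant, against 332.1, 289.5 and 307.9 in wild type, with overlapping groups and a log2 difference of -0.12 (SE 0.11, adjusted p = 0.608, limma).

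**Figure D2:**
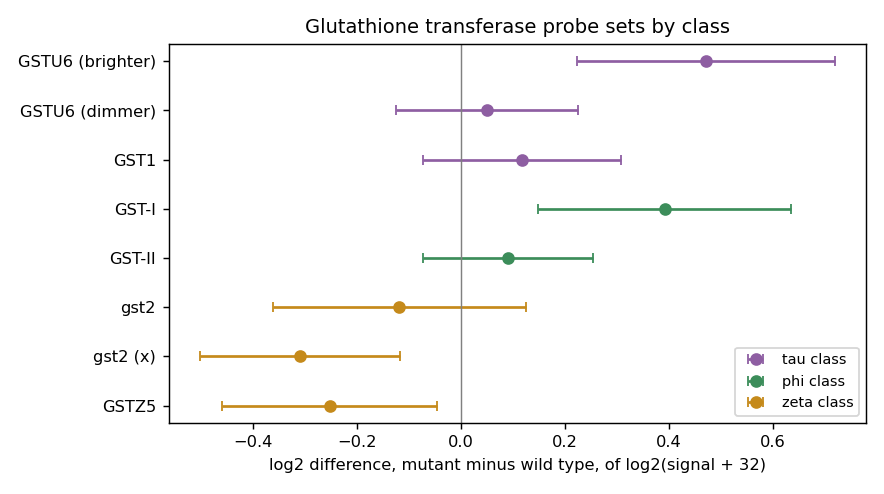
Log2 difference, mutant minus wild type, of log2(signal + 32) for the 8 GST probe sets, with 95% intervals of the limma fit (3 arrays per group, not adjusted for the number of probe sets), coloured by the class that the gene name gives. The brighter GSTU6 probe set and GST-I, of genes chosen as higher, lie at 0.47 and 0.39. The other tau and phi probe sets lie between 0.05 and 0.12 and the zeta probe sets between -0.31 and -0.12. The classes were not tested against each other.

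Apart from GSTU6 and GST-I, which were chosen on this comparison, the 4 other GST genes had differences from -0.25 for GSTZ5 to 0.12 for GST1 by their brightest probe sets, with a median of -0.01, where the median over 17905 genes was 0.01. None of the 4 passed in limma, against 19.6% of genes measured in this way, 1 of them (GSTZ5) had an unadjusted p under 0.05, and GSTZ5 passed in the SAM-type test (q = 0.0413).

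The variation between arrays of 1 genotype was used to ask whether the GST transcripts moved together apart from the mutation. Each array's log2 value was taken as its deviation from the mean of its genotype and these deviations were correlated over the 6 arrays, as a description with no test, since all values share the same 6 hybridizations. GSTU6 and GST-I did not vary together (r = -0.27). GST-I varied with GSTZ5 (r = 0.84) and against the gst2 probe set that is not of type x (r = -0.82). GSTU6 correlated best with GST1 among the GST probe sets (r = 0.69). The deviations of GSTU6 were -0.007, -0.028 and 0.035 on the mutant arrays, against 0.143, 0.095 and -0.238 on the wild-type arrays. Its r values, here and below, therefore rest mostly on the wild-type arrays, array 3 above all.

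The named genes most like GSTU6 in these deviations were BSL1, EF-1-beta (a translation elongation factor subunit), ARF7, CSB and HMA4 (a heavy metal transporter), with r from 0.991 to 0.995. Those most like GST-I were GLU13, AGD2, DAPF, PRXIIE-2 (a type II peroxiredoxin, which reduces peroxides) and OsPUB12, with r from 0.968 to 0.987. AGD2 and DAPF are both known as enzymes of lysine synthesis through diaminopimelate. An r of at least 0.9 was reached by other probe sets too: of 2527 named probe sets at or above the median signal, 109 (4.31%) reached it with GSTU6 and 23 (0.91%) with GST-I. None of the 10 passed the threshold between the genotypes (limma), with adjusted p from 0.0519 to 0.901. Across the array 18.1% of probe sets with 1 gene passed, so a count of none among 10 says little.

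**Figure D3:**
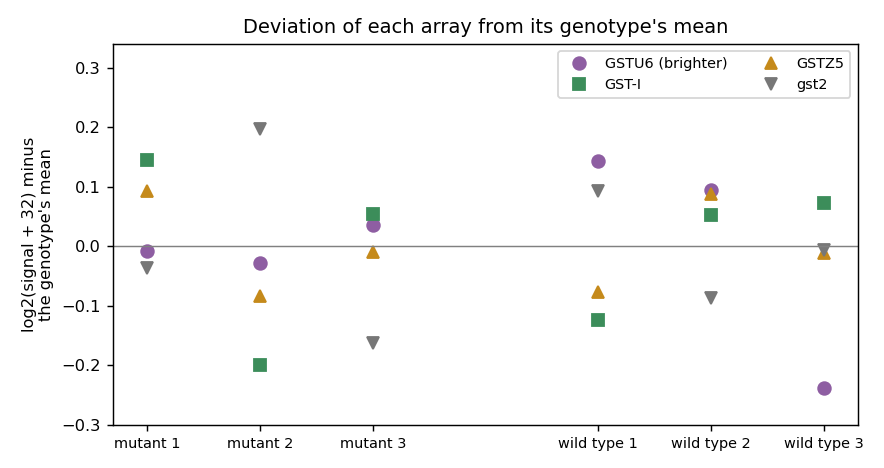
Deviation of each array from the mean of its genotype in log2(signal + 32), for the brighter GSTU6 probe set, GST-I, GSTZ5 and the gst2 probe set not of type x, mutant arrays left and wild-type arrays right. GSTU6 is lowest on wild-type array 3, GST-I is lowest on mutant array 2, and GST-I and gst2 lie on opposite sides of 0 on each of the 6 arrays.

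The other genes of glutathione metabolism were described to place the transferases. Of the genes that make and reduce glutathione, gcs, the glutamate-cysteine ligase gene, averaged 1695 ± 96.7 in the mutant and 1669 ± 106 in wild type (log2 difference 0.02, SE 0.09), and GR, a glutathione reductase gene, had 0.04 (SE 0.09), and neither passed (adjusted p = 0.93 and 0.858, limma). Their 95% intervals reached 1.16-fold for gcs and 1.19-fold for GR. Cysteine synthesis, which feeds glutathione, had 2 of 7 genes lower and 1 higher, where 8.71% of genes were lower and 10.9% higher across the array. SAT1, a serine acetyltransferase gene, averaged 288.2 ± 60.5 in the mutant and 617.1 ± 96.7 in wild type and fell by 1.03 (SE 0.15, adjusted p = 0.0025, limma), and SAT2 of the same kind fell by 0.58 (SE 0.10). The cysteine synthase gene rcs3 rose by 0.52 (SE 0.09, adjusted p = 0.00445, limma). These 3 calls held in every fit without 1 array. The other cysteine synthase gene, rcs1, had a log2 difference of -0.33 (SE 0.10), with every mutant array below every wild-type array, and did not pass (adjusted p = 0.0664, limma). SAT5 had -0.40 with its brightest probe set, which the counts use, and did not pass (adjusted p = 0.0799, limma). A dimmer SAT5 probe set fell by 0.37 (adjusted p = 0.0177, limma), a call lost in 5 of 6 fits without 1 array.

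Among 18 glutaredoxin genes, small proteins that use glutathione to reduce disulfides, 2 were higher and 2 lower, a share near the 10.9% and 8.71% of all genes. GRXS6 averaged 1002 ± 51.0 in the mutant and 467.1 ± 70.3 in wild type and rose by 1.06 (SE 0.11, adjusted p = 0.000464, limma), and GRXS5 averaged 1511 ± 296 in the mutant and 2919.5 ± 269 in wild type and fell by 0.95 (SE 0.14, adjusted p = 0.00232, limma). GRXC8 rose by 0.36 and GRXS9 fell by 0.40. The GRXC8 call was lost without mutant array 1, 2 or 3 or wild-type array 2 (adjusted p up to 0.116, limma), and the GRXS9 call without mutant array 2 or 3 or wild-type array 1 or 2 (up to 0.104). A dimmer probe set of GRXS4 rose by 0.46 (SE 0.09, adjusted p = 0.00882, limma), a call that held in every fit without 1 array. The brightest GRXS4 probe set, which the counts use, had 0.23 and did not pass (adjusted p = 0.182, limma). Of 9 genes for ascorbate peroxidases and monodehydroascorbate reductases, which remove hydrogen peroxide with ascorbate and recycle it, 1 passed: APX6 rose by 0.41 (SE 0.09, adjusted p = 0.0164, limma), and it lost the call without mutant array 2 or 3 or wild-type array 2 (up to 0.101). APX8 and MDAR2 had log2 differences of -0.34 and -0.32 and did not pass (adjusted p = 0.0515 and 0.114, limma). In both, every mutant array lay below every wild-type array. Of the 9 genes, 2 were separate with the mutant above and 2 with it below. No glutathione peroxidase or dehydroascorbate reductase symbol was matched.

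Superoxide dismutases, which turn superoxide into hydrogen peroxide, and catalases, which break hydrogen peroxide down, had 4 of 6 genes past the threshold. SODCC.2, a copper-zinc superoxide dismutase gene, averaged 2062 ± 75.3 in the mutant and 1043 ± 127 in wild type, and rose by 0.97 (SE 0.10, adjusted p = 0.000447, limma). The gene of the same kind cuznsod1 (SODCC.1) rose by 0.80 (SE 0.09) and the plastid gene sodCp by 0.33 (SE 0.08). The catalase gene CatB fell by 0.39 (SE 0.09) with its brightest probe set and was lower in 3 of its 5 probe sets. In all, 3 of 6 genes of this list rose and 1 fell, where 10.9% of all genes were higher and 8.71% lower. The calls of SODCC.2 and cuznsod1 held in every fit without 1 array, and the other CatB calls did too. The call of sodCp was lost without mutant array 1, 2 or 3 or wild-type array 2 (adjusted p up to 0.0818, limma), and that of the brightest CatB probe set without mutant array 2 or 3 or wild-type array 1 or 2 (up to 0.107).

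**Figure D4:**
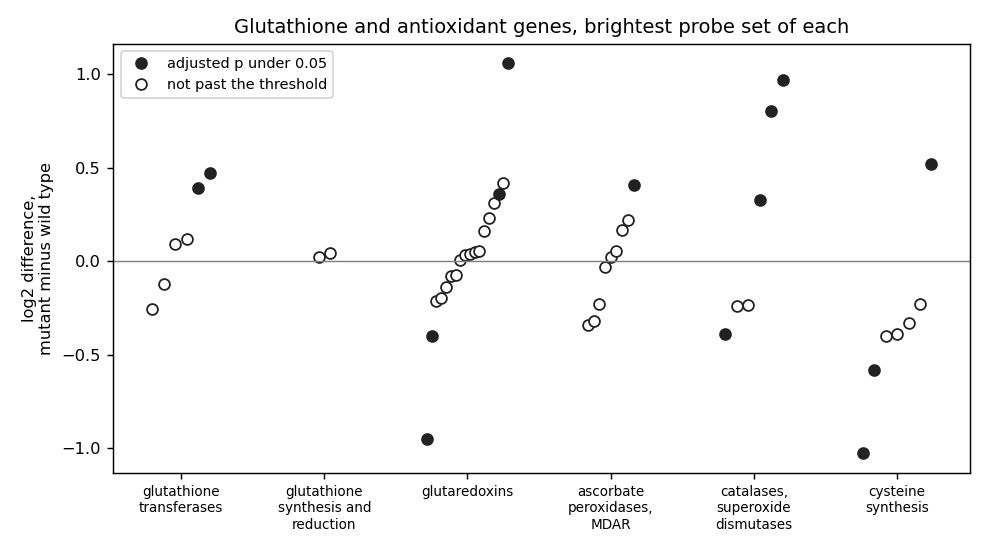
Log2 difference, mutant minus wild type, of the brightest probe set of each gene in 6 groups of glutathione and antioxidant genes, with filled points for adjusted p under 0.05 in the limma fit and open points for the others. SODCC.2, cuznsod1, GRXS6 and the cysteine synthase gene rcs3 lie above GSTU6 and GST-I, and SAT1 and GRXS5 lie lowest.

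The remaining groups held 29 cytochrome P450 genes, taken by symbol and not by a role in detoxification. Of these, 1 rose and 4 fell (10.9% and 8.71% of all genes), with a median of -0.15. The rest were single or paired genes, of which none passed in limma. These were GLYI-11, a glyoxalase gene (-0.06, adjusted p = 0.716, limma), and ABCC13, also named LPA2 (0.23, adjusted p = 0.175, limma). ABCC13 was the 1 gene found of a transporter family in which some members move glutathione conjugates into the vacuole. Also measured were 2 class III peroxidase genes, PRX74 and PRX112 (0.38 and 0.07, adjusted p = 0.191 and 0.793, limma). Of the P450 calls, CYP99A2 was lost in 5 of 6 fits without 1 array, CYP85A1 in 4 and CYP76M7 in 3, each of these without any 1 of the mutant arrays, CYP85A1 and CYP99A2 also without wild-type array 2 and CYP99A2 without wild-type array 1, with adjusted p up to 0.127 (limma). The calls of CYP74A2 and CYP701A9, both lower, held in 6 of 6. CYP74A2 averaged 170.1 in the mutant and 468.7 in wild type. CYP701A9 was dim, at 4.5 to 9.1 in the mutant and 18.1 to 48.2 in wild type. All its signals were under the array medians, and signals this low carry little information on the transcript. CYP76M7 was named after its values were seen. At an unadjusted p under 0.05, ABCC13 and 1 of the 2 peroxidase genes would pass.

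In RNA from whole seedlings, fewer cells of a type and less RNA per cell cannot be told apart. Of 5 leaf photosynthesis genes 1 fell, OsPSAG, and the summed signal was 33868 to 36039 in the mutant and 34790 to 36895 in wild type. A dimmer OsPSAG probe set, which the counts do not use, had 0.07 with overlapping groups (adjusted p = 0.789, limma). Of 9 root genes 1 fell, the iron-response factor gene OsIRO2, and the sum was 734.7 to 872.9 in the mutant and 828.6 to 943.3 in wild type. Of 8 seed storage genes 1 fell, GLUA-2, and the sum was 1238 to 1296 in the mutant and 1456 to 1527 in wild type, without overlap. That gap came mostly from the 2 brightest genes of the list. GLUA-2 averaged 244.0 in the mutant and 369.2 in wild type, and GLB 766.4 and 881.1. A second GLUA-2 probe set, under the array medians and not in the counts, had 0.13 with overlapping groups (adjusted p = 0.375, limma). The median log2 difference of the 8 seed genes was 0.003, and the highest was 0.10. These counts of 1 gene lower in each list stand beside 8.71% of all genes. Their part in the differences of GSTU6 and GST-I was not tested.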

How the data were processed

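For each of 6 rice arrays the authors deposited 1 linear intensity per probe set, the MAS5 signal, per the submitters' processing notes. The sources used here give no MAS5 version, scaling target or detection call. Of 57381 probe sets, 123 controls were left out and 57258 were tested, with no filter on dim ones. Signals were used as log2(signal + 32), and mutant was set against wild type with limma 3.58.1 under R 4.3.3 (lmFit, eBayes with an intensity trend, 2-sided), with Benjamini-Hochberg adjustment over all tested probe sets and a threshold of 0.05. An exact permutation test of 3 against 3 arrays cannot go below p = 0.1. The number of arrays limits the precision. The fit was tested on simulated data.

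Probe sets were named through the array's public annotation and the rice gene table of assembly ASM3414082v1: 22436 named 1 gene, 95 several and 34727 none. Genes were taken into lists by patterns on symbols and synonyms. A list for UDP-glycosyltransferases was dropped because its pattern matched glutelin and other genes, and 2 haemoglobin genes were removed from the seed list. The named genes are all GST probe sets, up to 4 genes of each list with the lowest p, and the 5 genes most like each member. For the marker lists fewer were named. The genes and lists were chosen with earlier results of these data known. No probe, promoter or protein sequence was used here, and the CHR729 transcript is not analysed here. Alternatives were offsets of 1 and 128, quantile normalization, median scaling, leaving out the 40% dimmest probe sets, no trend, array weights, the replicate number as a block, a SAM-type test (SAM is named in the submitters' design text) and leaving out each array.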

Additional observations from a re-analysis of the deposited data

How the results depend on the processing

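Over all 15 alternatives the log2 difference lay between 0.35 and 0.54 for the brighter GSTU6 probe set and between 0.28 and 0.49 for GST-I. Both probe sets belong to genes chosen as higher, and their groups did not overlap. Leaving out 1 array or changing the offset therefore cannot reverse the sign, and nothing is drawn from the sign. The dim GSTU6 probe set, which had no call, lay between -0.01 (without wild-type replicate 2) and 0.12 over 14 alternatives. It was left out by the filter on dim probe sets. The count of GST probe sets called higher was 2. It was 1 with the offset of 1, with quantile normalization, with median scaling, with array weights and with the replicate block, and 0 to 1 when an array was left out. The count called lower was 1. It was 0 with the offset of 1, with quantile normalization, with array weights and with the replicate block, 2 with the SAM-type test, and 0 whichever array was left out. The fit with the replicate block gave GST-I an adjusted p of 0.0729 and GSTU6 0.0332 (limma). The labels do not say whether the replicate numbers pair the samples. Deviations of same-numbered arrays correlated at 0.007, -0.17 and 0.09 over 57258 probe sets, and those of differently numbered arrays at -0.15 to 0.16. Over all probe sets the counts were 3140 higher and 2532 lower. Without 1 array they ranged from 1358 to 3511 higher and from 916 to 2838 lower, with counts more than 1.5 times smaller without mutant replicate 2 (1358 and 916), mutant replicate 3 (1716 and 1071) or wild-type replicate 2 (1779 and 1356). The cause was not tested. Of the 9 processing alternatives, GSTZ5 passed with the SAM-type test only, at a q-value of 0.0413. Detection calls were not used, so the dim GSTU6 probe set limits what can be said of that transcript.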

Other observations

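The measured genes around GSTU6 in the gene order of assembly ASM3414082v1 did not share its higher signal. Those directly beside it, LOC4349205 and LOC136353572, had no probe set. Of 12 neighbours, 6 on each side, 7 were measured with 8 probe sets, and their log2 differences, mutant minus wild type, ran from -0.46 to 0.02. LOC4349202, the fourth neighbour on one side, gave 2600, 2602 and 2372 in the mutant, against 3839, 3276 and 3360 in wild type, and fell by 0.46 (SE 0.09, adjusted p = 0.00997, limma). LOC4349203, beside it, gave 1092, 708.8 and 667.5 in the mutant, against 1009, 1103 and 1008 in wild type, with overlapping groups (log2 difference -0.36, adjusted p = 0.217). The nearest measured genes, LOC4349204 and LOC4349210, each 2 steps from GSTU6, had -0.01 and, in 2 probe sets, -0.19 and -0.04. None of these neighbours was called higher, where 9.96% of probe sets with 1 gene were, so a count of none among 8 says little.

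Around GST-I only 2 of 12 neighbours were measured. LOC4325704, the sixth on one side, gave 609.0, 537.3 and 491.5 in the mutant, against 264.3, 229.4 and 236.7 in wild type, and rose by 1.07 (SE 0.10, adjusted p = 0.00029, limma). LOC4325712, 2 steps away on the other side, was dim, at 19.4 to 23.5 in the mutant and 19.95 to 22.6 in wild type, with a log2 difference of 0.01. The gene table lists LOC4325704, LOC4325712, LOC4349202 and LOC4349203 by locus number, with no synonym.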
